A study of Mus musculus with 13 samples.

Results

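Enzymes that carry ceramide and sphingosine onward were followed in mouse liver: the sphingomyelin synthases Sgms1 and Sgms2, the sphingomyelinases Smpd1 and Smpd2, the glucosylceramide synthase Ugcg, the glucosylceramidase Gba2, the sphingosine kinases Sphk1 and Sphk2, and the sphingosine phosphate lyase Sgpl1. They are 9 of the 53392 genes in the count table and were chosen by gene symbol for their function, with earlier results of these data known. RNA from whole liver was sequenced in 13 female mice, littermates aged 8 to 14 weeks, all fed a Lieber-DeCarli liquid diet with 28% of calories from ethanol for 4 weeks. All were homozygous for Albumin-Cre and for Rosa26-loxP-stop-loxP-rtTA, so that the doxycycline-dependent activator rtTA was made in hepatocytes, where the albumin promoter is active. ASAH+ mice also carried TRE-ASAH1, an acid ceramidase transgene driven by rtTA, whereas ASAH− mice lacked it. There were 3 groups. The design text counts 4 animals in a group, but 5 samples carry the ASAH+ and Etoh-Dox labels, and all were used. The Etoh-Dox diet (ethanol with doxycycline) was given to 4 ASAH− and to 5 ASAH+ mice, and the Etoh diet without doxycycline to 4 ASAH+ mice. For the ASAH+ mice the sample titles name the opposite doxycycline treatment, so groups were set by the sample descriptions and by the induction labels.

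Ceramide lies at a branch point. It can be released from sphingomyelin by sphingomyelinases, built into sphingomyelin by sphingomyelin synthases, or glycosylated to glucosylceramide, and ceramidases cleave it to sphingosine. Sphingosine kinases phosphorylate sphingosine to sphingosine 1-phosphate (S1P), a signalling lipid, and S1P lyase cleaves it irreversibly. The question put to the data was whether transcripts of these neighbouring enzymes differed in livers in which the ceramidase was induced.

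Acid ceramidase itself separated the groups. Levels are given as CPM, counts scaled to the total of each library after adjustment of that total by TMM normalization. Asah1 was at 12755 ± 2796 CPM (SD, n = 5) in ASAH+ Etoh-Dox mice, 49.4 ± 6.78 (n = 4) in ASAH− mice and 46.5 ± 1.70 (n = 4) in ASAH+ Etoh mice. The total count of a library ranged from 17819486 to 35358711 (median 24454043). The summed level of 6 hepatocyte markers (Alb, Apoa1, Ttr, Hnf4a, Cps1 and Serpina1a) was 81315 to 132017 CPM, and none of them was at 0. Markers of other liver cells were lower, at 235 to 676 CPM for 6 Kupffer cell genes, 108 to 231 for 6 endothelial genes, 211 to 312 for 6 stellate cell genes and 31.5 to 79.1 for 5 cholangiocyte genes. Kupffer cell genes were higher in ASAH− mice (315 to 676) than in ASAH+ Etoh mice (246 to 313), and stellate cell genes higher in ASAH− mice (263 to 312) than in ASAH+ Etoh-Dox mice (211 to 258), both without overlap. The 6 lymphocyte and neutrophil genes summed to 1.152 to 3.85 CPM, and Ly6g was at 0 in every ASAH+ Etoh-Dox mouse. At so low a level, no difference between groups is read from Ly6g. The summed level of 5 red cell genes was 135 to 192 CPM in ASAH+ Etoh mice, 215 to 1714 in ASAH− mice and 241 to 871 in ASAH+ Etoh-Dox mice, and thus did not overlap between mice with and without doxycycline. In whole liver, fewer cells of a type and less RNA per cell cannot be told apart.

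Promoters are shown for the enzymes whose levels moved most closely with the ratio of the clock genes Dbp and Arntl among the mice, Ugcg, Sgms2, Sphk2 and Sgpl1, a choice made after their values were seen. RefSeq windows on GRCm38.p6, from 250 bases before to 50 bases after an annotated start, were read for all 9 genes (22 windows). Of the 6 Sgms2 windows, only the window that holds CACGTG is shown. Sequences run 5′ to 3′ in the direction of transcription, and capitals mark letters of 6 motifs searched on both strands: CACGTG (the E-box), TTATGTAA (the D-box), TAGGTCA (a ROR element), TGACGTCA (the cyclic AMP response element), GGGCGG (the GC box) and CCAAT.
Sphk2, chr7:45717953-45718252, minus strand: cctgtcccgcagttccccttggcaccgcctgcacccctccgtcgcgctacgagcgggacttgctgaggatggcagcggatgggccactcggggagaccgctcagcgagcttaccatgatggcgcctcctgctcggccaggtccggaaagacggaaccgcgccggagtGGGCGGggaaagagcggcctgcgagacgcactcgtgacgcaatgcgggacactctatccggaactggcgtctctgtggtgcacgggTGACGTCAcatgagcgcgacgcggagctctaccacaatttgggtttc
Sphk2, chr7:45715158-45715457, minus strand: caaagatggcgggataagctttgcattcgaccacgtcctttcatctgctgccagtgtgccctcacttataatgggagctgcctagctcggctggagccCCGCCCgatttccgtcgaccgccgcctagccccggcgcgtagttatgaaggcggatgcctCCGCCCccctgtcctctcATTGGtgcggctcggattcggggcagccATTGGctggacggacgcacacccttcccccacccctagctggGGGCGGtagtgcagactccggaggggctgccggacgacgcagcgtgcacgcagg
Sgpl1, chr10:61147635-61147934, minus strand: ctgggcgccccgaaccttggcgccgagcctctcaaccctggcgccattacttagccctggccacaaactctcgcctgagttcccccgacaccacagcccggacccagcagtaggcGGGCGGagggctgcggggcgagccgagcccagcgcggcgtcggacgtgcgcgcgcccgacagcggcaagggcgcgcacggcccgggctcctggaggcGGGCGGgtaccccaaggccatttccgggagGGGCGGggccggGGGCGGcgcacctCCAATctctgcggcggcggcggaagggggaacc
Ugcg, chr4:59189300-59189599, plus strand: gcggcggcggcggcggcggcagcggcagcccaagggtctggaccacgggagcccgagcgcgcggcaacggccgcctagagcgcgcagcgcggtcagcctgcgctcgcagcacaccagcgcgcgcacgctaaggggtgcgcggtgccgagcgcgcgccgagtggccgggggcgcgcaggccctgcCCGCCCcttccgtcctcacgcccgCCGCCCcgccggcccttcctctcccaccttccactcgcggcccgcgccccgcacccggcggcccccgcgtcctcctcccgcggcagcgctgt
Sgms2, chr3:131488993-131489292, minus strand: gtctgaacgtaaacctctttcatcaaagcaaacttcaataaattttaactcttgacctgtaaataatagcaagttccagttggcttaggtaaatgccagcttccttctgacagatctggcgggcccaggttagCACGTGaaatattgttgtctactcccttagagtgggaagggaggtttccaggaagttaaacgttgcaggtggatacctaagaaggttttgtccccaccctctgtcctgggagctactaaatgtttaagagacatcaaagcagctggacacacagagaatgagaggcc
The cyclic AMP response element TGACGTCA was found in the upstream window of Sphk2, and 1.79% of all 32851 promoter windows hold it. The E-box CACGTG, which CLOCK and ARNTL are known to bind, was found in 4 of the 22 windows, belonging to Sgms2, Smpd2 and Sphk1, and in 7.15% of all windows. The 4 windows hold 3 distinct sites, since both of the Sphk1 windows among these 4 overlap and contain the same one. Other Sphk1 windows do not hold it. TTATGTAA, bound by DBP and its relatives, and TAGGTCA were in none of the 22 windows, and in 0.938% and 2.61% of all windows. GGGCGG was in 12 of the 22 windows and 35.7% of all windows, and CCAAT in 8 of the 22 and 37.4% of all. No motif overlapped another in the 5 windows shown.

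Levels of different enzymes were compared per kilobase of exon, with all genes scaled to the same total in each mouse (a length-scaled level). Acid sphingomyelinase Smpd1 was the highest of the 9 at 28.4 ± 2.58 (SD, n = 13), followed by Sgms2 at 26.7 ± 4.61 and Sgpl1 at 26.0 ± 3.78. Sphk2 stood at 19.7 ± 5.33 and Ugcg at 14.4 ± 2.81. The neutral sphingomyelinase Smpd2 (9.88 ± 1.49), Sgms1 (4.74 ± 1.02) and Gba2 (4.09 ± 0.866) were lower, and Sphk1 was at 0.106 ± 0.0614. Neighbours in this order overlapped in their ranges over the mice, except Smpd2 above Sgms1 and Gba2 above Sphk1, which kept their order in 13 of 13 mice. With the longest transcript as the length, Sgpl1 passed Sgms2 and Sgms1, at 10.6, passed Smpd2 at 9.08.

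**Figure D1:**
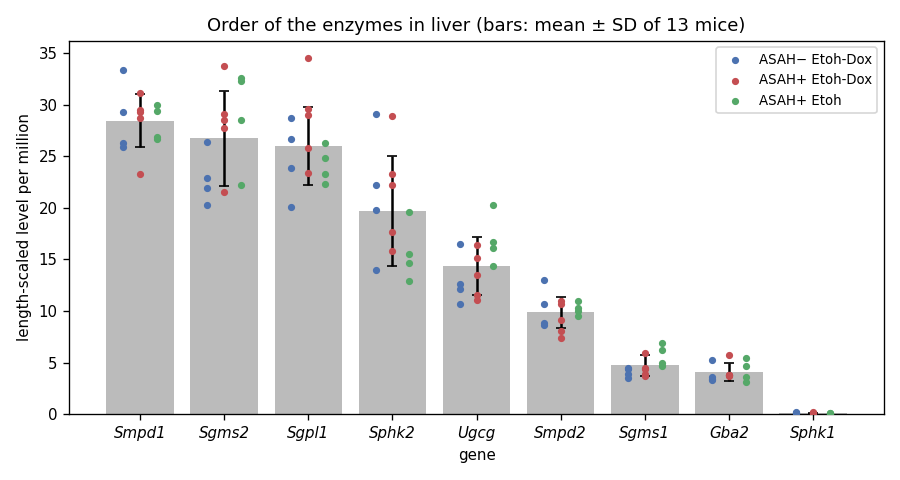
Length-scaled level (vertical axis) of the 9 enzymes in order of their mean. Bars are the mean and error bars the SD of 13 mice, and points are mice coloured by group, with Smpd1 highest at 28.4 and Sphk1 lowest at 0.106.

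Each pair of related enzymes had a member with the larger share in all 13 mice. Sgms2 made up 84.9% ± 1.92 (SD, n = 13) of the length-scaled level of the sphingomyelin synthases, with a range of 82.5 to 88.1%, but 69.9% ± 3.19 when the longest transcript gave the length. Smpd1 made up 74.3% ± 2.36 of the sphingomyelinase pair and Ugcg 77.8% ± 2.97 of the sum of Ugcg and Gba2. Sphk2 held 99.5% ± 0.326 of the sphingosine kinase level. With longest-transcript lengths these last 3 shares were 78.8%, 78.2% and 99.5%.

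None of the enzymes was called different in any comparison. Of the 9, 8 passed the filter on low counts, all but Sphk1. They were tested with edgeR by quasi-likelihood, with Benjamini-Hochberg adjustment over 14317 genes and a threshold of 0.1. For genotype on Etoh-Dox (ASAH+ over ASAH−) 0 of 8 were called, where 0.014% of all genes tested (2 genes) were. For doxycycline in ASAH+ mice (Etoh-Dox over Etoh), and for the uninduced controls (ASAH− over ASAH+ Etoh mice), 0 of 8 were called again, beside 0.014% of all genes in each. limma-voom also called 0, as did DESeq2, which however gave no adjusted p to 5 of the 8 (Sgms1, Smpd2, Ugcg, Gba2 and Sphk2) for doxycycline in ASAH+ mice when fitted on all mice, so that these could not be called there. Fitted on the groups compared, DESeq2 gave all 8 an adjusted p and called 0. At an unadjusted p under 0.05 the 3 comparisons gave 0, 2 and 3 of the 8 enzymes, against 2.86%, 7.29% and 9.19% of all genes. Those 2 (Sgms1 and Ugcg) and 3 (with Sgms2) were lower in the mice given doxycycline, as were 3.24% and 4.11% of all genes. Groups did not overlap for 0, 0 and 1 of the 8, against 0.887%, 2.58% and 5.5% of all genes. The 3 comparisons share their groups by pairs, so their values are not independent of each other. In ASAH+ mice doxycycline also induced Asah1, and the uninduced controls differ in both genotype and doxycycline. In neither of these comparisons can an effect of doxycycline alone be told apart.

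The median log2 fold change of the 8 enzymes was 0.02 for genotype on Etoh-Dox, −0.04 for doxycycline in ASAH+ mice and −0.01 for the uninduced controls, and over all genes tested it was −0.0023, 0.01 and 0.02. Their median absolute log2 fold change was 0.07, 0.19 and 0.19, and that of all genes 0.10, 0.13 and 0.14. The genotype comparison on Etoh-Dox thus held the smaller differences, and the comparisons against mice without doxycycline the larger.

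**Figure D2:**
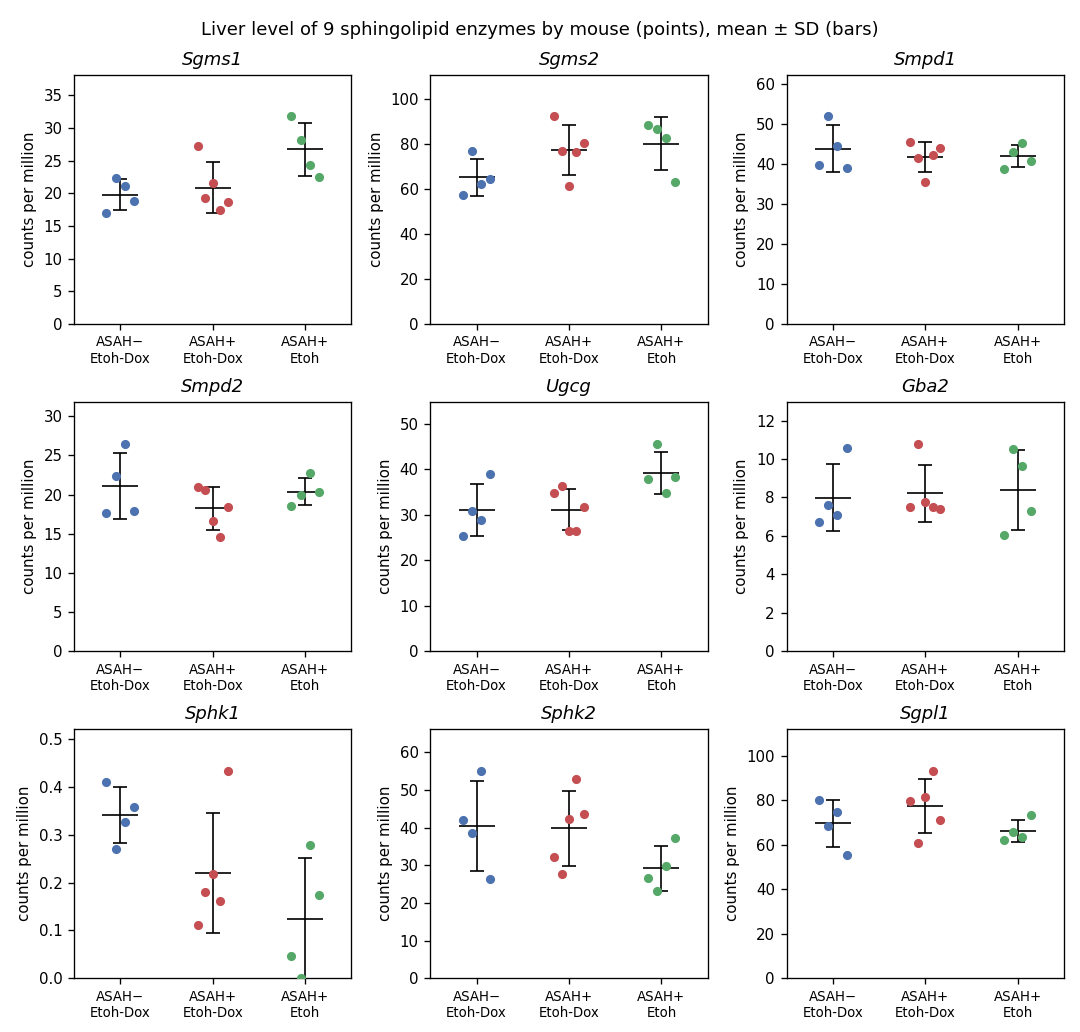
CPM (vertical axes, from 0) of each enzyme in every mouse (points) by group, with the group mean and SD (bars). Ranges of the groups overlap for all enzymes except Sgms1, where the 4 ASAH− mice, at 17.0 to 22.3 CPM, lie under the 4 ASAH+ Etoh mice, at 22.5 to 31.8 CPM.

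The sphingomyelin synthases make sphingomyelin and diacylglycerol from ceramide and phosphatidylcholine, Sgms1 in the Golgi and Sgms2 largely at the plasma membrane. Sgms1 (chr19:32122727-32389714, minus strand) was at 17.0, 22.3, 21.2 and 18.8 CPM in ASAH− mice, at 27.3, 19.3, 21.6, 17.4 and 18.6 in ASAH+ Etoh-Dox mice, and at 31.8, 28.2, 24.4 and 22.5 in ASAH+ Etoh mice. The mice without doxycycline were the highest, and only replicate 1 of the ASAH+ Etoh-Dox mice lay among them. The log2 fold change was 0.08 (SE 0.14) for genotype on Etoh-Dox, −0.36 (SE 0.14, unadjusted p = 0.0227, adjusted p = 0.603) for doxycycline in ASAH+ mice and −0.43 (SE 0.15, unadjusted p = 0.0111, adjusted p = 0.418) for the uninduced controls. In the last, the exact two-sided permutation test gave p = 0.0286, the smallest that 4 against 4 mice allow, and 5.5% of all genes were without overlap in the same comparison, 2.4% in the same direction. Between these same groups red cell markers (215 to 1714 CPM against 135 to 192) and Kupffer cell markers (315 to 676 against 246 to 313) were higher in ASAH− mice without overlap, opposite in direction to Sgms1, and their part in this difference was not tested.

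Sgms2 (chr3:131318985-131491411, minus strand) was at 57.3, 76.7, 62.0 and 64.3 CPM in ASAH− mice, at 92.1, 76.5, 61.3, 76.2 and 80.2 in ASAH+ Etoh-Dox mice, and at 88.3, 86.5, 82.3 and 63.0 in ASAH+ Etoh mice. Most ASAH− mice lay near the lowest mouse of each ASAH+ group, and the groups overlapped. Its log2 fold change was 0.25 (SE 0.13, 95% confidence interval −0.03 to 0.52, adjusted p = 0.9997) for genotype on Etoh-Dox, the largest of the 8 there, and −0.05 (SE 0.13) for doxycycline in ASAH+ mice. For the uninduced controls it was −0.30 (SE 0.13, adjusted p = 0.527). Its relative Samd8, which makes the ceramide analogue of phosphatidylethanolamine, had a similar pattern. Over the 13 mice its log2 CPM correlated with that of Sgms2 (Pearson r = 0.88, Spearman rho = 0.89), a description only, since the pair was chosen after its values were seen.

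The sphingomyelinases release ceramide from sphingomyelin, Smpd1 in the lysosome at acid pH and Smpd2 at neutral pH. Smpd1 (chr7:105554360-105558389, plus strand) varied little, with 43.8 ± 5.92 CPM in ASAH− mice, 41.8 ± 3.81 in ASAH+ Etoh-Dox mice and 42.0 ± 2.85 in ASAH+ Etoh mice. Its log2 fold changes were −0.07 (SE 0.098), −0.0083 (SE 0.098) and 0.06 (SE 0.10) in the 3 comparisons, with 95% intervals that stayed between −0.28 and 0.28. Smpd2 (chr10:41485642-41490369, minus strand) was at 21.1 ± 4.23, 18.2 ± 2.73 and 20.4 ± 1.74 CPM. It was 0.21 lower on the log2 scale (SE 0.14, adjusted p = 0.9997) in ASAH+ than in ASAH− mice, within the spread between mice, and ran from −0.28 to −0.081 when single mice were left out, the latter without ASAH− replicate 3. Smpd2 shares 905 exonic bases, 20.3% of its exons, with Mical1 on the opposite strand, where 13 to 45 reads per mouse were counted, against 352 to 758 for Smpd2. The library kit marks strand, and whether strand was used in counting is not given in the sources used here.

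Ugcg adds glucose to ceramide, the first step to complex glycosphingolipids, and Gba2 removes it outside the lysosome. Ugcg (chr4:59189257-59222833, plus strand) was at 25.3, 30.8, 28.9 and 38.9 CPM in ASAH− mice, at 34.7, 36.2, 26.5, 26.4 and 31.7 in ASAH+ Etoh-Dox mice, and at 37.9, 45.6, 34.7 and 38.3 in ASAH+ Etoh mice. Values without doxycycline were the higher ones, but mice of both doxycycline groups lay among them. The log2 fold change was 0.0048 (SE 0.13, 95% interval −0.28 to 0.29) for genotype on Etoh-Dox. For doxycycline in ASAH+ mice it was −0.33 (SE 0.13, unadjusted p = 0.0265, adjusted p = 0.617, exact permutation p = 0.0476) and for the uninduced controls −0.34 (SE 0.14, unadjusted p = 0.0323, adjusted p = 0.502, exact permutation p = 0.114). Like Sgms1, it was lower in the mice given doxycycline in both comparisons against the same 4 mice, before adjustment only. Doxycycline cannot be told apart there from Asah1 induction or from genotype. Gba2 (chr4:43566928-43578873, minus strand) was at 7.99 ± 1.75, 8.20 ± 1.46 and 8.38 ± 2.08 CPM in the 3 groups, and its log2 fold changes lay between −0.07 and 0.04. It shares 133 exonic bases with Creb3 (396 to 947 reads per mouse) and 159 with Rgp1 (671 to 1408), both on the opposite strand and both with more reads than Gba2 (126 to 300).

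Sphingosine, the product of ceramidase, is phosphorylated by the sphingosine kinases. Sphk2 (chr7:45709467-45718002, minus strand) was at 42.0, 38.5, 55.1 and 26.2 CPM in ASAH− mice, at 32.2, 27.8, 42.3, 53.0 and 43.7 in ASAH+ Etoh-Dox mice, and at 26.5, 23.1, 29.9 and 37.2 in ASAH+ Etoh mice. It spread more between mice of a group than any other tested member, with coefficients of variation of 29.3%, 25.0% and 20.8% in ASAH−, ASAH+ Etoh-Dox and ASAH+ Etoh mice, except that Gba2 reached 24.8% in the last. The log2 fold change was −0.02 (SE 0.22, 95% interval −0.50 to 0.46) for genotype on Etoh-Dox and 0.45 (SE 0.23, adjusted p = 0.704) for doxycycline in ASAH+ mice. For the uninduced controls it was 0.47 (SE 0.24, adjusted p = 0.573). When single mice were left out, this last value ran from 0.29 to 0.63, the former without ASAH− replicate 3. The interval in the genotype comparison thus left room for a level of 0.705 to 1.37 times that of ASAH− mice. Sphk2 shares 539 exonic bases, 12.96% of its exons, with the clock gene Dbp and 373 with Rpl18, both on the opposite strand. Dbp had 137 to 3683 reads per mouse and Rpl18 1379 to 3439, against 567 to 1350 for Sphk2. What reads these overlaps could have given to Sphk2 or taken from it was not tested.

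Sphk1 (chr11:116530925-116536674, plus strand), the mainly cytosolic kinase, was near the limit of detection. Its counts were 9, 7, 8 and 10 in ASAH− mice, 4, 5, 6, 4 and 10 in ASAH+ Etoh-Dox mice, and 1, 0, 6 and 3 in ASAH+ Etoh mice, where a count of 0 allows up to 3. By CPM, ASAH− mice were higher than ASAH+ Etoh mice in 15 of 16 pairs. Red cell and Kupffer cell markers differed in the same direction between these groups, without overlap, and their part in this difference was not tested. Exact two-sided permutation tests gave p = 0.0952 for genotype on Etoh-Dox, 0.214 for doxycycline in ASAH+ mice and 0.0571 for the uninduced controls, where 5 against 4 mice can reach 0.00794 and 4 against 4 can reach 0.0286. Without a count filter, edgeR gave log2 fold changes of −0.64 (SE 0.55, unadjusted p = 0.259, adjusted p = 0.900), 0.82 (SE 0.65, unadjusted p = 0.221, adjusted p = 0.804) and 1.46 (SE 0.66, unadjusted p = 0.0357, adjusted p = 0.763). The last is the largest difference of the 9 enzymes, rests on few reads, and would make 4 of 9 the count at an unadjusted p under 0.05 in the uninduced controls, where 5.56% of all genes were under it in that fit.

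Sgpl1, the lyase of the endoplasmic reticulum that ends the pathway (chr10:61098642-61147703, minus strand), was at 80.2, 68.4, 74.6 and 55.6 CPM in ASAH− mice, at 79.7, 60.6, 81.6, 93.3 and 71.4 in ASAH+ Etoh-Dox mice, and at 62.2, 65.7, 63.3 and 73.5 in ASAH+ Etoh mice. All 3 groups overlapped. The log2 fold change was 0.15 (SE 0.13, 95% interval −0.12 to 0.42, and 0.056 to 0.23 without single mice) for genotype on Etoh-Dox, 0.22 (SE 0.13, adjusted p = 0.724) for doxycycline in ASAH+ mice and 0.07 (SE 0.13) for the uninduced controls.

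**Figure D3:**
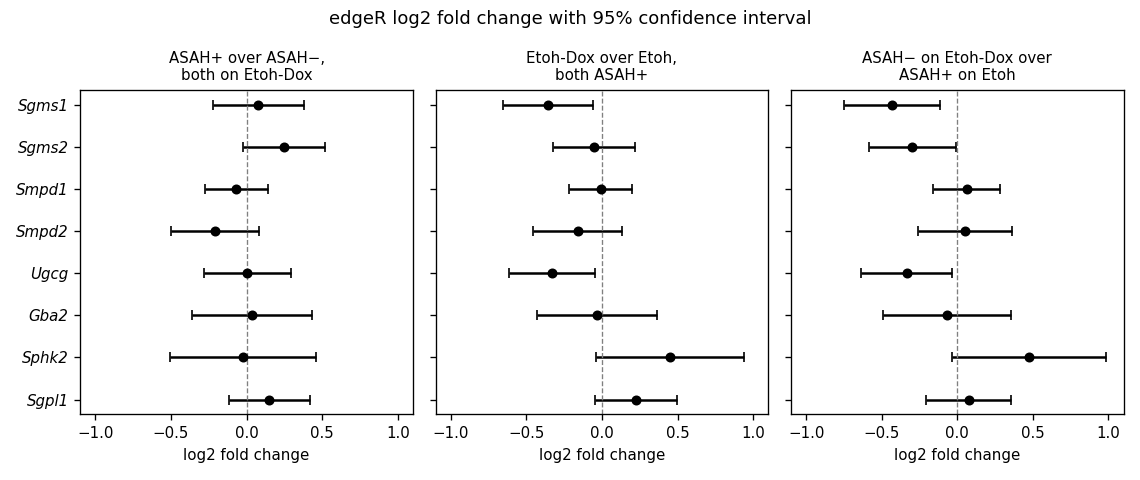
Log2 fold change (horizontal axes) of the 8 tested enzymes in the 3 comparisons, with 95% confidence intervals from edgeR. In the genotype comparison every interval includes 0, whereas the unadjusted intervals of Sgms1 and Ugcg lie under 0 in the other panels, as does that of Sgms2 in the last.

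Beyond these 9, 62 other genes of sphingolipid metabolism were listed, of which 50 passed the count filter and 0 were called in each comparison. At an unadjusted p under 0.05, 2 of the 50 passed for genotype on Etoh-Dox. Samd8 was at 42.0 ± 8.36 CPM in ASAH+ and 33.8 ± 2.86 in ASAH− mice (log2 fold change 0.31, SE 0.13), and Apom, the S1P carrier of lipoproteins, at 200.2 ± 25.3 and 239.95 ± 18.7 (−0.26, SE 0.095). For doxycycline in ASAH+ mice 2 passed: Ormdl1, a regulator of ceramide synthesis, differed by 0.25 (SE 0.091), and Plpp3, a lipid phosphate phosphatase, by −0.37 (SE 0.16). In the uninduced controls 3 passed, with Samd8 at −0.45 (SE 0.14, adjusted p = 0.389), the ceramidase Acer3 at −0.22 (SE 0.10) and Ormdl1 at 0.21 (SE 0.096). The counts of 2, 2 and 3 of 50 compare with 2.86%, 7.29% and 9.19% of all genes.

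While no enzyme was called between groups, several varied together among mice of the same group. Deviations of log2 CPM from the group means were correlated over the 13 mice for all 36 pairs of the 9 enzymes, and 4 pairs passed an adjusted p of 0.1 (permutation test, Benjamini-Hochberg over the 36). The permutation makes no allowance for the group means removed, so its p-values are too small. Passing is thus not firm for pairs near the threshold. All 4 were among the 28 pairs of tested enzymes (14.3%), while 4.68% of all pairs of tested genes had an absolute r of at least 0.68, the lowest of the 4. Pairs that share an enzyme are not independent, so nothing particular to these enzymes is read from the count. Sphk2 and Sgpl1, which follow each other in S1P metabolism, rose and fell together (Pearson r = 0.79, permutation p = 0.00135, adjusted p = 0.0358; Spearman rho = 0.69, p = 0.0121). Without the 2 mice farthest from the median of Sphk2, r was 0.55. Ugcg ran opposite to both, with r = −0.78 (permutation p = 0.00199, adjusted p = 0.0358) to Sphk2 and −0.74 (p = 0.00359, adjusted p = 0.0431) to Sgpl1. The corresponding rho was −0.71 (permutation p = 0.00822) and −0.72 (p = 0.00775), and r fell to −0.61 and −0.51 without 2 mice. Sgms2 and Smpd1 correlated with r = 0.68 (permutation p = 0.0108, adjusted p = 0.0973), rho = 0.71 (p = 0.00815) and 0.63 without 2 mice. By rho, 3 pairs passed, all but Sphk2 with Sgpl1 (adjusted p = 0.109). Single mice mattered here: 0 pairs passed without ASAH− replicate 4 or without ASAH+ Etoh-Dox replicate 2, 2 without ASAH− replicate 1, 7 without ASAH+ Etoh replicate 1 and 9 without ASAH+ Etoh-Dox replicate 4.

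**Figure D4:**
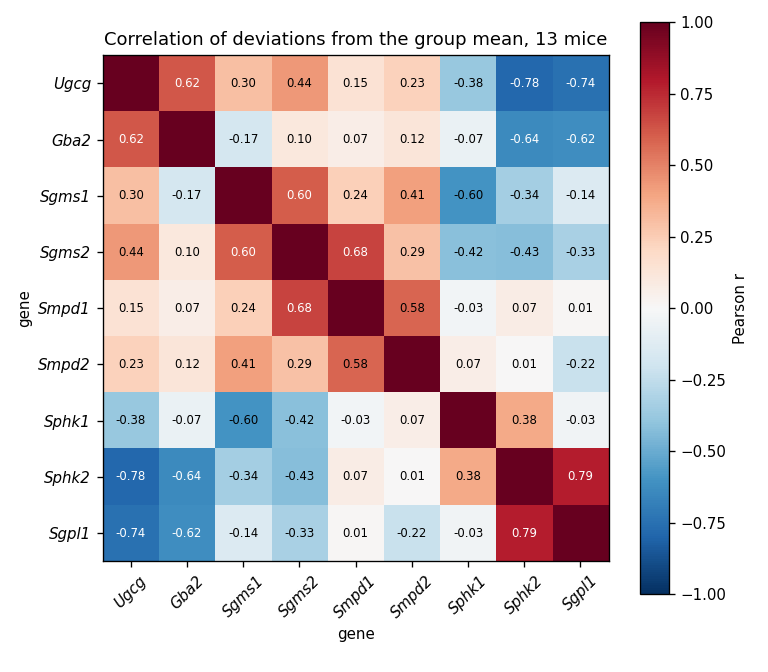
Pearson r (colour and printed value) of deviations of log2 CPM from the group mean between the 9 enzymes over 13 mice. Sphk2 and Sgpl1 correlate at 0.79, and both run opposite to Ugcg, at −0.78 and −0.74.

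Of the 8 tested enzymes, 4 were correlated with the ratio of a pair of clock genes, in which they were not alone: 14.6% of all 14317 genes passed the same rule (permutation test, Benjamini-Hochberg over all genes tested, threshold 0.1). The permutation again makes no allowance for the group means removed, so its p-values are too small, for the enzymes and for all genes alike. Dbp, an output gene of the circadian clock, and Arntl, a core activator whose transcript runs in the opposite phase, differed widely between mice, and the log2 ratio of Dbp to Arntl ran from −1.64 to 6.78. In ASAH− mice it was −0.96, 6.49, 1.81 and 6.11, in ASAH+ Etoh-Dox mice 6.64, 6.78, −1.64, 0.15 and 2.70, and in ASAH+ Etoh mice 4.45, 6.06, 5.05 and 1.60. The ratio thus spanned nearly its whole range within each doxycycline group. Within groups, Ugcg rose with it (Pearson r = 0.82, permutation p = 0.00102, adjusted p = 0.0212; Spearman rho = 0.81, p = 0.00118), as did Sgms2 (r = 0.78, p = 0.00187, adjusted p = 0.0304; rho = 0.70, p = 0.0105). Sphk2 fell as it rose (r = −0.75, permutation p = 0.00398, adjusted p = 0.0464; rho = −0.76, p = 0.00367), and so did Sgpl1 (r = −0.72, p = 0.00542, adjusted p = 0.0566; rho = −0.70, p = 0.0106). Without the 2 mice farthest from the median, r was 0.73 for Ugcg, 0.65 for Sgms2, −0.88 for Sphk2 and −0.70 for Sgpl1. Sphk2 shares 539 exonic bases with Dbp, the numerator of the ratio, and the part of this overlap in its correlation was not tested.

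The other enzymes did not pass. Smpd1 and Gba2 (r = 0.54 each) had adjusted p of 0.227 and 0.223, with rho of 0.51 and 0.60, and Smpd1 fell to 0.24 without the 2 farthest mice whereas Gba2 stayed at 0.54. Sgms1 (r = 0.47, rho = 0.51) and Smpd2 (r = 0.45, rho = 0.52) had adjusted p of 0.319 and 0.351. Sphk1, outside the genes tested, gave r = −0.32 (permutation p = 0.287). Depth also differed between the libraries, and with log2 library total the deviations of Sgms1 gave r = 0.78, of Sphk2 −0.61 and of Sgms2 0.58. Those of Sphk1 gave −0.56, of Ugcg 0.50 and of Sgpl1 −0.29. The part of depth in the correlations, also of the enzymes that passed, was not tested. With the Dbp to Arntl ratio removed from the deviations, an alternative chosen after the data were seen, 1 of the 36 pairs passed: Smpd1 with Sphk2 (r = 0.85, permutation p = 0.00036, adjusted p = 0.0130), a pair at r = 0.07 before. Sphk2 with Sgpl1 then stood at 0.53, and Ugcg at −0.45 with Sphk2 and −0.38 with Sgpl1. The permutation p-value of Smpd1 with Sphk2 makes no allowance for the removed ratio or group means, and is too small.

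**Figure D5:**
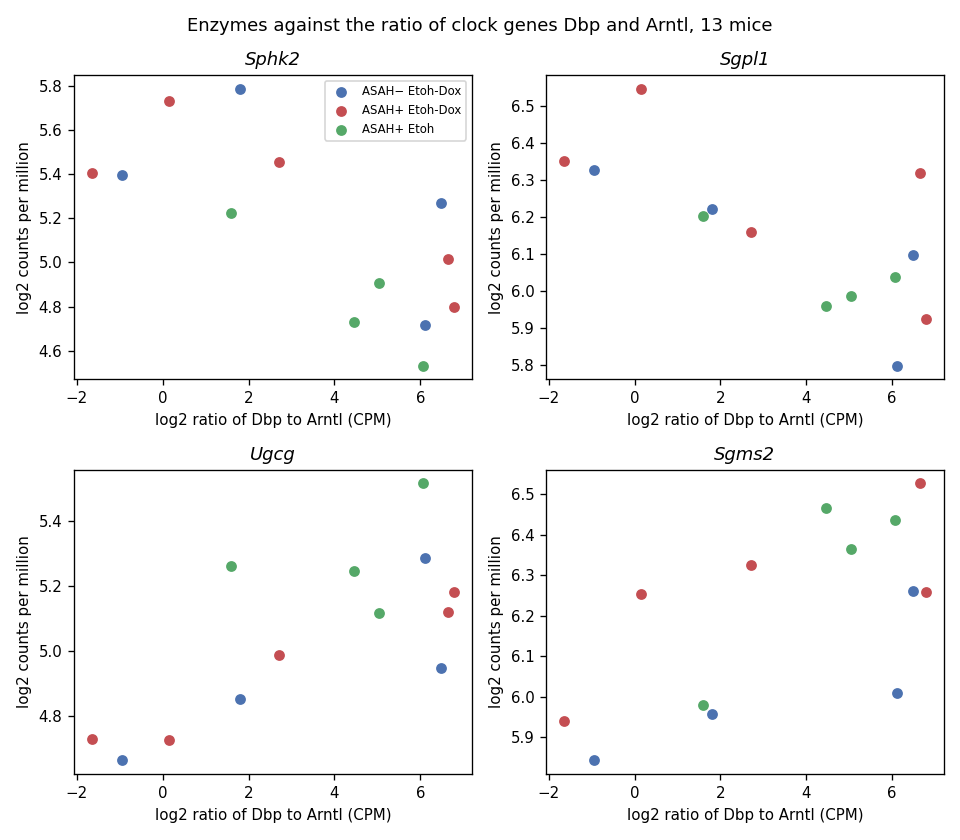
Log2 CPM (vertical axes) of Sphk2, Sgpl1, Ugcg and Sgms2 against the log2 ratio of Dbp to Arntl (horizontal axes) in 13 mice, coloured by group. Sphk2 and Sgpl1 are lower and Ugcg and Sgms2 higher in mice with a high ratio, with r of −0.75, −0.72, 0.82 and 0.78 within groups.

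With this ratio as a covariate in edgeR, 0 of the 8 enzymes were called. At an unadjusted p under 0.05 there were 1, 2 and 4 of 8 in the 3 comparisons, beside 3.76%, 8.81% and 10.9% of all genes, and the standard errors of all 8 were smaller than without it in each comparison. The log2 fold change of Sgms2 for genotype on Etoh-Dox was then 0.27 (SE 0.092, unadjusted p = 0.0115, adjusted p = 0.9993), and that of Ugcg for doxycycline in ASAH+ mice −0.27 (SE 0.091, unadjusted p = 0.0107, adjusted p = 0.434). Sphk2 differed by 0.32 (SE 0.16, adjusted p = 0.581) for doxycycline in ASAH+ mice and Sgms1 by −0.31 (SE 0.13, adjusted p = 0.524). In the uninduced controls the values were −0.30 for Ugcg (SE 0.095, unadjusted p = 0.00759, adjusted p = 0.303), −0.40 for Sgms1 (SE 0.14, adjusted p = 0.326), −0.25 for Sgms2 (SE 0.097, adjusted p = 0.387) and 0.39 for Sphk2 (SE 0.16, adjusted p = 0.426). The unadjusted p of Sphk2 there was 0.0325 with the covariate and 0.0671 without it.

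Among all genes tested, those whose log2 CPM over the 13 mice was most like that of each enzyme are given as a description. For Sgms1 they were the acute phase genes Orm1 (r = 0.92) and C4b (0.91), and for Sgms2 the receptor gene Erbb3 (0.91) and Pcnt (0.89). Smpd1 was nearest to Bcl7b (0.92) and Nxt1 (0.89), and Smpd2 to the cytokine receptors Tnfrsf1a (0.87) and Il17ra (0.84). Ugcg was nearest to Tulp4 and Ric1 (0.95 each), and Gba2 to Gpr155 (0.93) and Brca2 (0.92). Sphk2 was most like Lypla2 (0.94) and the liver phosphofructokinase Pfkl (0.93), and Sgpl1 was most like Drc1 (0.92) and Sgsm2 (0.89).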

How the data were processed

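RNA of whole liver from 13 mice was analysed. The authors mapped single-end reads of poly(A)-selected, strand-specific libraries with salmon to GENCODE M19 transcripts (GRCm38.p6) and summed them with tximport. Estimated counts per gene were deposited, rounded to whole numbers and not scaled for library size. Reads that fit several transcripts are split by estimated abundance, so overlapping genes are less certain. The time of day at which livers were taken is not given in the sources used here. Each library was taken as 1 mouse.

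Groups came from sample descriptions and induction labels, replicate numbers from titles. Of 53392 identifiers, 53355 had coordinates and lengths in GENCODE M21 (GRCm38). The 9 enzymes, the 62 other sphingolipid genes and the cell markers were chosen with earlier results of these data known. The genes named are the 9 enzymes, Asah1, up to 5 of the 62 with the smallest unadjusted p under 0.05 per comparison, the 2 tested genes most correlated with each enzyme, Dbp and Arntl. Genes that overlap an enzyme and the marker genes were named besides.

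Genes passing edgeR's count filter (14317) were fitted in R 4.3.3 with edgeR 4.0.16, TMM normalization and the robust quasi-likelihood method, with a mean per group. Benjamini-Hochberg adjustment ran over all genes tested, with 0.1 as threshold. The standard error is the log2 fold change over the square root of F. Single genes were also tested by exact two-sided permutation of mean log2 CPM (prior count 2), and correlations by 100000 permutations of deviations from group means, two-sided (scipy 1.17.1, Python 3.11.15). A count of 0 allows up to 3 counts. Reads carried no molecular identifiers, so such limits cover counting error only. The fits were tested on simulated data.

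The alternatives were DESeq2 1.42.0 and edgeR on all mice or the groups compared, DESeq2's size factors, limma-voom (limma 3.58.1), no count filter, a minimum of 10 counts per mouse, library totals without Asah1, no robust dispersion, a replicate block, the Dbp to Arntl ratio as covariate, an adjusted p under 0.05, Spearman rho, a prior count of 0.5, longest-transcript lengths and each mouse left out in turn.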

Additional observations from a re-analysis of the deposited data

Results flagged for a closer look

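Gba2 stood at 10.8 CPM in ASAH+ Etoh-Dox replicate 2, whereas the other 4 mice of that group were at 7.42 to 7.77 CPM, so that the gap took 0.895 of the group's range by Dixon's test. It was the only such mouse in 27 sets of 1 enzyme and 1 group, and chance alone gives such a mouse in about 1 of 20 sets. The same mouse had the highest Dbp to Arntl ratio of the 13 (log2 6.78), but replicate 1 of that group, at 6.64, had 7.52 CPM of Gba2. Without replicate 2, the log2 fold change of Gba2 for genotype on Etoh-Dox was −0.08 in place of 0.04, and neither passed the threshold.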

How the results depend on the processing

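The number of enzymes called stayed at 0 of those given an adjusted p in each comparison under all 25 alternatives, with a smallest adjusted p of 0.135 (Sgms1 in the uninduced controls, DESeq2 on the groups compared). DESeq2 on all mice gave no adjusted p to Sgms1, Smpd2, Ugcg, Gba2 and Sphk2 for doxycycline, which it therefore could not call. What moved was the number of all genes called, 2 in each comparison by edgeR. In the order genotype on Etoh-Dox, doxycycline in ASAH+ mice and uninduced controls, DESeq2 called 12, 95 and 150 on all mice and 11, 113 and 168 on the groups compared. edgeR on the groups compared called 1, 3 and 0, and the clock covariate left 1 in the uninduced controls. Without a count filter 4 were called for doxycycline, and at an adjusted p under 0.05 there were 0 in the uninduced controls. With Asah1 out of the totals, 1 was called for genotype and 1 for doxycycline. Asah1, among the 2 called in both of these comparisons by edgeR, was then not tested either (14316 genes), so this is no effect of the totals alone. Leaving out each mouse gave 1 to 2, 2 to 8 (8 without ASAH+ Etoh replicate 2) and 0 to 2. The numbers of replicates belong to different mice: deviations of same-numbered mice had a mean r of −0.0462 (12 pairs, −0.265 to 0.19) beside 0.0126 in 44 other pairs, and 0 of 13 mice correlated best with their own number. With the replicate block 1, 2 and 0 genes were called, Ugcg turned to −0.0033 for genotype and Gba2 to 0.0129 for doxycycline. Pairs of enzymes past the threshold, 4 in all, numbered 3 by rho, 1 with the clock ratio removed (chosen after seeing the data) and 0 to 9 without single mice. The median length-scaled level of the enzymes was 15.98 with longest transcripts and 14.4 with all exons.

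Differences near 0 changed sign, none of them past the threshold. With the clock covariate, doxycycline values turned to 0.0157 for Sgms2, 0.0230 for Smpd1 and 0.0411 for Gba2. Without single mice, genotype values ran from −0.0410 to 0.136 for Sgms1, −0.121 to 0.0224 for Smpd1, −0.0736 to 0.134 for Ugcg, −0.0834 to 0.201 for Gba2 and −0.184 to 0.162 for Sphk2. Doxycycline values ran from −0.159 to 0.0120 for Sgms2, −0.0518 to 0.0353 for Smpd1 and −0.162 to 0.0984 for Gba2. Uninduced control values ran from −0.0314 to 0.112 for Smpd1, −0.0804 to 0.122 for Smpd2, −0.235 to 0.0618 for Gba2 and −0.0171 to 0.168 for Sgpl1. The cause was not tested. Sphk1, with 0 to 10 counts per mouse, had an unadjusted p of 0.0357 in the uninduced controls by edgeR without a filter and 0.0427 by DESeq2 on all mice, where edgeR's adjusted p was 0.763 and DESeq2 gave no adjusted value.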
